A study of Mus musculus with 28 samples.

Results

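Transcripts of 43 potassium channel genes were followed in the ventromedial prefrontal cortex of female mice, in which a virus and a stress procedure were combined. The genes were taken by symbol from the 52636 genes of the count tables, and they cover voltage-gated, inwardly rectifying, tandem-pore, calcium-activated and sodium-activated channels with some of their auxiliary subunits. Of the 43 genes, 42 had counts above 0 and passed the filter on low counts, so no member was lost to it. Kcna3, a Kv1 subunit known best from lymphocytes, was listed at 0 in all 28 libraries. Its whole span of chr3:107036169-107038070 (GRCm38) lies within another annotated gene, and a fragment that falls in 2 genes adds to neither count, so the 0 does not show that it was absent.

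Each of the 28 libraries came from 1 mouse, and each of the 4 groups held 7 mice. The groups were stressed mice with the virus labelled Slit1 KD, stressed mice with the LacZ control virus, unstressed mice with the Slit1 KD label and unstressed mice with LacZ. Stress lasted 3 days and is abbreviated sCVS in the labels, and all 28 mice had received a virus. No age or strain, no promoter and no infected cell type is given in the labels, and the tissue was a needle punch of the infected area, in which infected and uninfected cells were not separated. Slit1 did not differ beyond its spread between the virus labels, with 18.2 ± 9.80 CPM against 19.8 ± 10.2 CPM for LacZ in stressed mice and 25.9 ± 17.5 CPM against 24.4 ± 16.1 CPM for LacZ in unstressed mice (mean ± SD, n = 7 each). The groups are therefore called by their labels, as KD-labelled and LacZ.

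Libraries held 30.6 M to 44.3 M counted fragments, and levels are given as CPM, which is the share of a library's counts, scaled by TMM to the usual common total. The libraries differed widely in how level depended on base composition. The GC slope of a library, the log2 change of level per 10 percentage points of exonic GC content, ran from -1.17 to 1.21 and followed the first principal component, which held 58.8% of the variance. Group membership explained 0.0300% of how this slope varied. Markers of cortical excitatory neurons were all detected, while Gfap, Dlx1, Gpr17, P2ry12, Itgam, Acp5, Tubb3 and Nefl were listed at 0 among the markers of the other cell types. As for Kcna3, a 0 does not show that a gene was absent. Overlap with other annotated genes was examined for the potassium channel members only. An alternative fit leaves out 3 libraries with unusual markers, which are KD-labelled stressed replicate 2 for bone, LacZ stressed replicate 4 for few T cell transcripts and KD-labelled stressed replicate 7 for striatal neurons. Unstressed KD-labelled replicate 2 was high in striatal markers too, at 565 CPM against 604 CPM in KD-labelled stressed replicate 7, and remains in that fit.

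Potassium channels let potassium leave a neuron and so set its resting potential, the shape of its action potentials and how fast it can fire again. Voltage-gated alpha subunits assemble as tetramers, often with cytoplasmic beta subunits or KChIP proteins, whereas inward rectifiers and tandem-pore channels hold the membrane near rest. In cortex, Kv1 and Kv3 channels are known for fast repolarisation in interneurons and axons, Kv4 channels for the dendritic A-type current of pyramidal cells and Kir4.1 for potassium uptake by astrocytes.

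The feature shared by the pore-forming members is the selectivity filter, whose glycine-tyrosine-glycine signature is written in the coding sequence as GGNTANGGN. Read in frame on the coding strand, this motif was present in 28 of the 43 members and in 6.10% of 21584 coding sequences of mouse genes. A variant with phenylalanine or leucine in the middle, GGNTTNGGN, was present in 10 members and in 12.1% of all coding sequences. The Kv beta subunits, the KChIP proteins and Kcnmb4, which form no pore, held neither motif. The stretches of 60 coding bases shown next hold the motif in capitals. They are from GENCODE vM21 transcripts on GRCm38 and are of members whose stretch lies in a single exon. The first 3 are the members of highest level in the Kv1, silent Kv and BK groups, and the other 8 are 4 pairs of relatives that are set side by side in the results on base composition.

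Kcna2 chr3:107105206-107105265 plus strand: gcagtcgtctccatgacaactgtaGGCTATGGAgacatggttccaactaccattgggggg
Kcnv1 chr15:45109262-45109321 minus strand: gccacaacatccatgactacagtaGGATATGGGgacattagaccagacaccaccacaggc
Kcnma1 chr14:23528386-23528445 minus strand: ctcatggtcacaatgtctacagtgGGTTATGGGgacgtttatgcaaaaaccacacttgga
Kcnh3 chr15:99232911-99232970 plus strand: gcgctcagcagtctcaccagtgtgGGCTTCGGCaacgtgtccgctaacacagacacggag
Kcnh7 chr2:62777316-62777375 minus strand: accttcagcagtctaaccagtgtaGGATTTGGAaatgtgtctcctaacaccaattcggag
Kcnt1 chr2:25894349-25894408 plus strand: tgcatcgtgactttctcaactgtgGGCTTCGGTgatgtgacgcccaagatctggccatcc
Kcnt2 chr1:140425260-140425319 plus strand: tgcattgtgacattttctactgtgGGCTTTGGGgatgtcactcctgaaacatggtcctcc
Kcnc4 chr3:107447772-107447831 minus strand: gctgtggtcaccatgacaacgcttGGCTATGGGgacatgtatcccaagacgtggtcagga
Kcnc2 chr10:112456211-112456270 plus strand: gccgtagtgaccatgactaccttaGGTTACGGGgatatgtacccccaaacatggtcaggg
Kcnj9 chr1:172326157-172326216 minus strand: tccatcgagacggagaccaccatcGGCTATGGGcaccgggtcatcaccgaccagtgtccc
Kcnj3 chr2:55437609-55437668 plus strand: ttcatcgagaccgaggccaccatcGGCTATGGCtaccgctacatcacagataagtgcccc

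Each pair shares the motif type and differs in the bases around it and in GC content. The coding sequence of Kcnh3 was 60.9% GC and that of Kcnh7 45.3%, and at the last base of the codons the pair had 68.8% and 47.0% GC. For Kcnt1 and Kcnt2 the coding GC contents were 57.3% and 42.7%, for Kcnc4 and Kcnc2 60.1% and 54.7%, and for Kcnj9 and Kcnj3 64.0% and 50.6%.

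The members spanned a wide range of levels. Per kb of counted gene span, Kcnv1 was highest with a mean of 15.9 CPM per kb, followed by Kcna2 with 15.6, Kcna1 with 9.29, Kcnip4 with 5.43 and Kcna4 with 5.26 CPM per kb. The lowest were Kcnn1 with 0.0361, Kcnip1 with 0.0761 and Kcnh2 with 0.0812 CPM per kb. Counting covered whole gene spans with their introns, and the exonic share of the span ran from 0.319% for Kcnip4 to 100% for Kcna5, so this scale weighs long genes by their intronic reads. Several members also lie partly under other annotated genes, whose shared fragments were not counted. This covered 81.1% of the span of Kcnab1, and 68.0% of the span and 93.6% of the exonic bases of Kcna6. Of the exonic bases it covered 66.8% for Kcnh1, 56.9% for Kcnip4, 53.4% for Kcnk1, 46.3% for Kcnt2, 31.5% for Kcnmb4 and 31.1% for Kcnj3. The levels of these genes are uncertain to that extent.

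**Figure D1:**
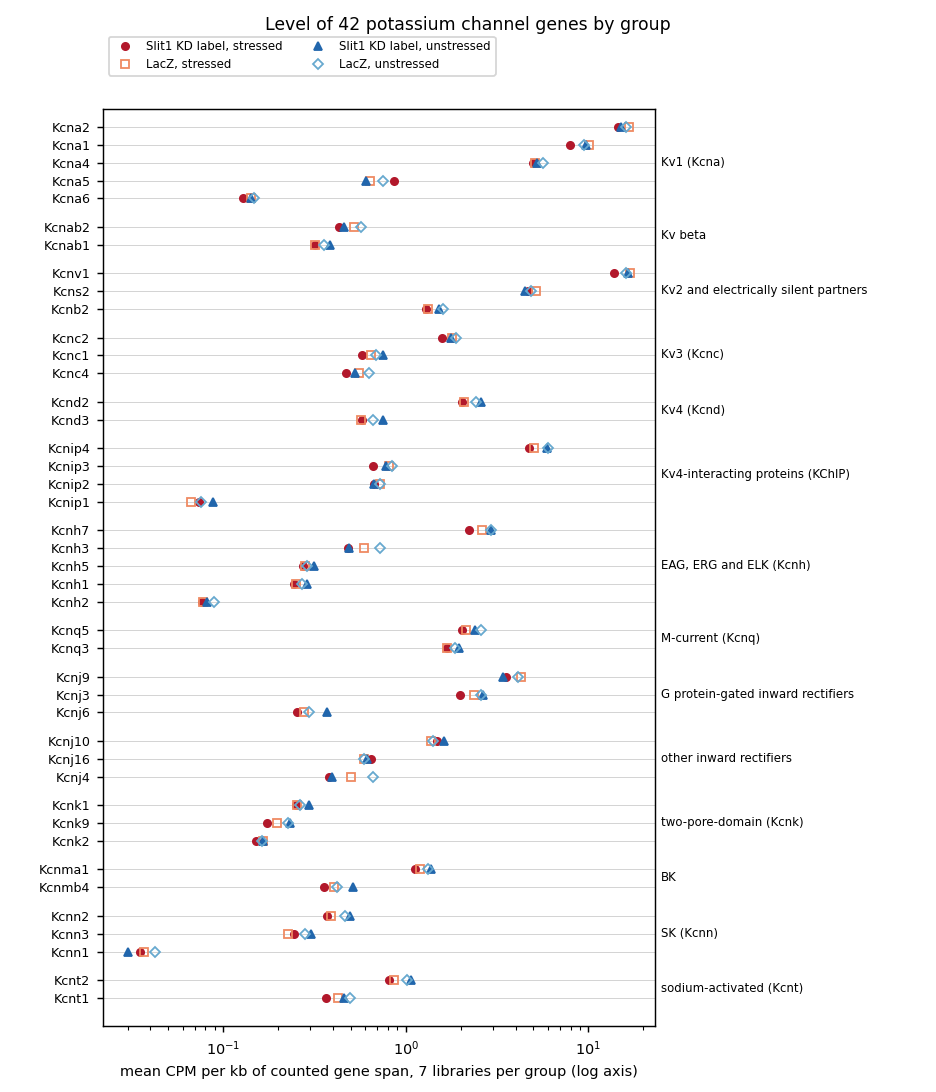
Mean level of each of the 42 members in CPM per kb of counted span (log axis), by group and subfamily, with 7 libraries behind each symbol. The 4 symbols of a gene lie close together beside the distance between Kcnv1, at a mean of 15.9, and Kcnn1, at 0.0361.

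No potassium channel gene passed the test in any comparison, and nor did any other gene. With edgeR's quasi-likelihood test, 0 of 19171 genes and 0 of the 42 members passed a Benjamini-Hochberg adjusted p under 0.05 for the knockdown label in unstressed mice, the knockdown label in stressed mice, stress with LacZ, stress with the knockdown label, both effects averaged over the other factor, and their interaction (0.0% called in each). DESeq2 and limma voomWithQualityWeights also called 0 genes in each of the 7 comparisons. The smallest adjusted p among the members was 0.999856 by edgeR.

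At an unadjusted p under 0.05, edgeR counted no member for the knockdown label, where 0.897% of all genes passed in unstressed mice, 0.824% in stressed mice and 1.52% in the average. It counted 3 of 42 members for stress with the knockdown label, against 1.79% of all genes, and 2 of 42 for stress averaged over the viruses, against 2.21%. It counted 0 members for stress with LacZ, against 0.402% of all genes, and 0 for the interaction, against 0.355%. Over all genes these were 172, 158, 291, 343, 424, 77 and 68 genes, and DESeq2 gave 253, 175, 373, 473, 606, 123 and 73. By DESeq2 the members past this threshold numbered 3 for stress with the knockdown label, 3 for stress averaged and 0 elsewhere. By voomWithQualityWeights they numbered 4 for stress averaged, 3 for the knockdown label averaged, 2 for it in stressed mice, 1 each for stress with the knockdown label and with LacZ, and 0 for the others. By voomWithQualityWeights the genes in all numbered 694, 870, 1210, 935, 1258, 673 and 576. The members counted by edgeR were Kcnj6, Kcnd3 and Kcnmb4 for stress with the knockdown label and Kcnd3 and Kcnn3 for stress averaged, each lower in stressed mice. Without unstressed KD-labelled replicate 2 the unadjusted p of the first 3 was 0.198, 0.161 and 0.0569.

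The estimates for stress lay mostly below 0. Averaged over the viruses, the log2 fold change was below 0 in 38 of 42 members, or 90.5%, with a median of -0.17, against 53.7% of all 19171 genes and a median of -0.01. The 4 above 0 were Kcna5, Kcns2, Kcnj9 and Kcnj16. The median standard error of a single member was 0.22, which describes 1 gene and not the median over the members. The median over the members of log2 CPM less the gene's mean had an SD of 0.196 between libraries within groups. For Kcnip2, Kcnn1 and Kcna2 the estimate was -0.00, -0.00 and -0.01. Leaving out single libraries moved the number below 0 to between 30 and 39. The 30 were found without unstressed LacZ replicate 1, where 44.4% of all genes were below 0. By voomWithQualityWeights the number was 28, against 53.1% of all genes. Kcnv1, Kcnip4, Kcnd2, Kcnh7, Kcnt2 and Kcna1 were among those then above 0.

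**Figure D2:**
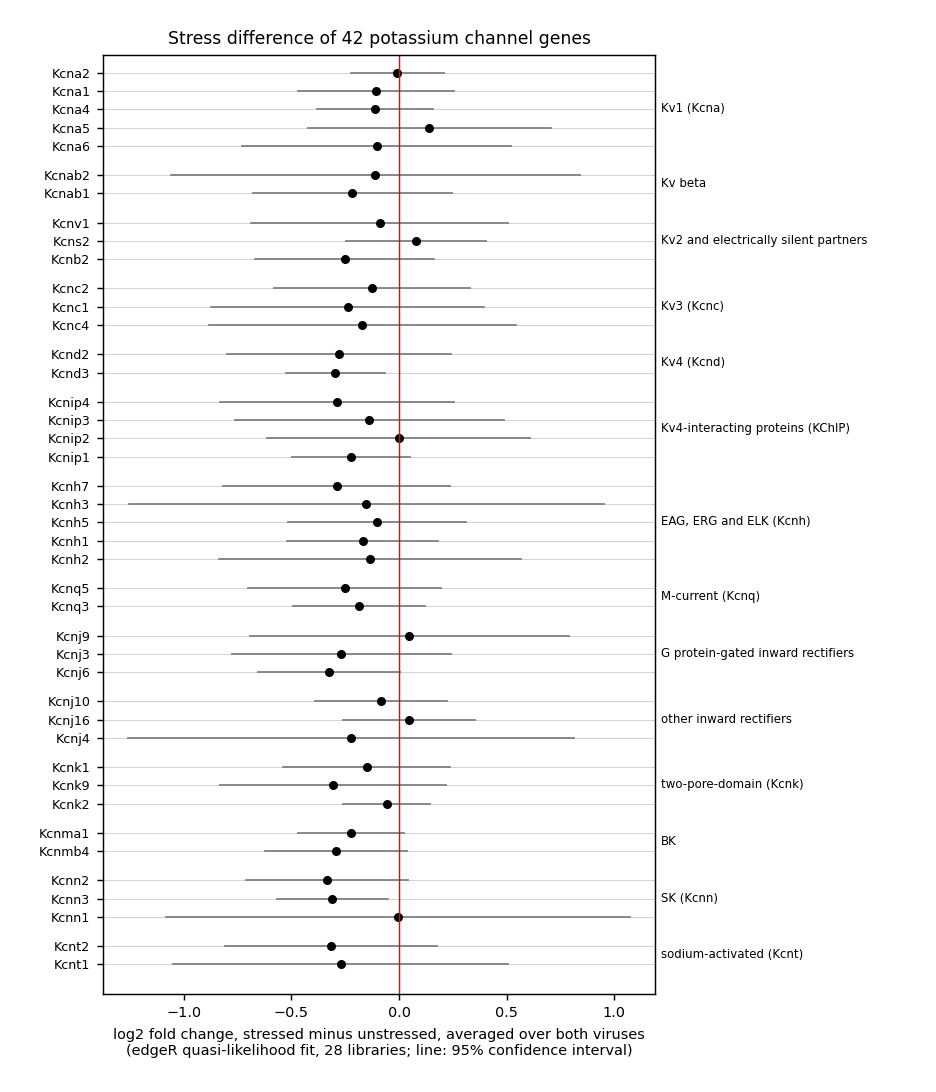
Log2 fold change of stressed against unstressed mice, averaged over both viruses, for the 42 members by subfamily (points, with 95% confidence intervals from the edgeR fit of 28 libraries). 38 points lie below 0, and the intervals of Kcnd3 and Kcnn3 alone end below 0.

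The other comparisons gave the following counts, and comparisons that share a group are not independent of each other. Within LacZ mice the stress estimate was below 0 in 35 of 42 members (median -0.15), against 54.5% of all genes. Without unstressed LacZ replicate 1 it was below 0 in 23 of 42 (median -0.02), against 44.5% of all genes, and by voomWithQualityWeights in 25, against 53.4%. Within KD-labelled mice it was below 0 in 36 of 42 members (median -0.23), against 52.5% of all genes. For the knockdown label it was below 0 in 34 of 42 members in stressed mice (median -0.10), against 57.7% of all genes, and in 20 of 42 in unstressed mice (median 0.02), against 52.9%. The 34 in stressed mice became 25 without stressed LacZ replicate 6, against 52.5% of all genes, and 24 by voomWithQualityWeights, against 47.2%. The 20 in unstressed mice ranged from 14 to 26 over single libraries left out. The interaction estimate was below 0 in 28 members, with a median of -0.10, against 51.4% of all genes. Without unstressed KD-labelled replicate 2 it was below 0 in 20 members, against 47.9% of all genes. In bulk tissue, fewer cells of a type and less RNA per cell cannot be told apart, and this holds for every difference given here.

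Among the Kv1 alpha subunits, which open at low threshold and restrain firing in axons, Kcna2 had the highest level per kb of span. In stressed mice, the lowest, median and highest libraries held 138, 187 and 277 CPM of Kcna2 with the KD label and 174, 243 and 278 CPM with LacZ. Unstressed mice held 156, 202 and 264 CPM with the KD label and 164, 226 and 262 CPM with LacZ. The groups overlapped throughout, with the lowest library in the KD-labelled stressed group. For the knockdown label in stressed mice, the log2 fold change of Kcna2 was -0.19 (SE 0.15, 95% interval -0.50 to 0.11, edgeR unadjusted p = 0.206, adjusted p = 1.00). Kcna1, the other main axonal subunit, was lower than the LacZ mean in 5 of the 7 KD-labelled stressed libraries. Levels of Kcna1 (lowest, median and highest library) were 26.9, 50.5 and 64.3 CPM in KD-labelled and 38.5, 56.5 and 87.996 CPM in LacZ stressed mice. They were 35.01, 45.5 and 115 CPM in KD-labelled and 42.8, 56.4 and 72.7 CPM in LacZ unstressed mice. The highest Kcna1 library of all was an unstressed KD-labelled replicate, and the ranges overlapped in all 4 groups. Kcna1 had a log2 fold change for the knockdown label in stressed mice of -0.35 (SE 0.25, 95% interval -0.86 to 0.16, edgeR unadjusted p = 0.171, adjusted p = 1.00). Kcna4, which forms an inactivating A-type channel, averaged 39.1 ± 10.6 and 40.3 ± 7.89 CPM in KD-labelled and LacZ stressed mice, and 41.4 ± 10.4 and 44.6 ± 11.3 CPM in KD-labelled and LacZ unstressed mice (SD, n = 7 each here and in later means). Kcna6, a further Kv1 alpha subunit, averaged 4.14 ± 2.02 and 4.61 ± 2.48 CPM in KD-labelled and LacZ stressed mice, and 4.62 ± 2.51 and 4.76 ± 2.78 CPM in KD-labelled and LacZ unstressed mice.

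Kcna5, a delayed-rectifier subunit known best from heart and vessels, averaged 2.05 CPM over all libraries. With stress, Kcna5 stood at 0.912, 1.65 and 7.50 CPM (lowest, median and highest) in KD-labelled libraries and at 1.13, 1.68 and 2.996 CPM in LacZ libraries. Without stress it stood at 0.66, 1.71 and 2.77 CPM in KD-labelled libraries and at 1.06, 2.39 and 3.06 CPM in LacZ libraries. The single high value was KD-labelled stressed replicate 7, the library with the most striatal marker transcripts, and the other 6 libraries of that group reached 2.47 CPM at most. For the knockdown label in stressed mice, the log2 fold change of Kcna5 was 0.43 (SE 0.39, 95% interval -0.37 to 1.23, edgeR unadjusted p = 0.279, adjusted p = 1.00). Without that library the difference was -0.17, and the interaction estimate of 0.73 became 0.13. Striatal markers summed to 604 CPM in that library and to between 235 and 349 CPM in the other 6 of its group. Inhibitory neuron markers summed to 909 CPM there, against 339 to 540.1 CPM in the other 6, and choroid plexus markers to 26.4 CPM, against 2.11 to 4.04 CPM. The part of these markers in the Kcna5 value was not tested.

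Of the cytoplasmic Kv beta subunits, which speed inactivation and traffic of Kv1 channels, Kcnab2 varied most. Kcnab2 had 7.87, 20.1 and 86.3 CPM in the lowest, median and highest KD-labelled stressed library, and 11.5, 22.1 and 94.7 CPM in LacZ stressed libraries. In unstressed mice it had 6.90, 29.6 and 82.9 CPM with the KD label and 13.6, 20.3 and 151 CPM with LacZ. The ranges overlapped, and the highest library of all was unstressed with LacZ. The stress estimate was -0.11 for Kcnab2 and -0.22 for Kcnab1, which averaged 85.9 ± 32.1 and 85.5 ± 27.99 CPM in KD-labelled and LacZ stressed mice, and 103 ± 62.2 and 96.2 ± 39.1 CPM in KD-labelled and LacZ unstressed mice.

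Kcnv1 codes for a silent subunit that forms no channel alone and alters Kv2 channels. In stressed mice, the lowest, median and highest libraries held 71.3, 96.2 and 243 CPM of Kcnv1 with the KD label and 65.6, 160.4 and 251 CPM with LacZ. Unstressed mice held 50.7, 76.1 and 373 CPM with the KD label and 81.5, 103 and 248 CPM with LacZ. Its highest and lowest libraries were both in the unstressed KD-labelled group. The stress estimate was -0.09 on the log2 scale, with a standard error of 0.29. Kcns2, likewise a modifier of Kv2 channels, averaged 23.2 ± 6.19 and 25.6 ± 6.81 CPM in KD-labelled and LacZ stressed mice, and 22.2 ± 8.23 and 23.96 ± 6.27 CPM in KD-labelled and LacZ unstressed mice. Kcnb2, the Kv2 alpha subunit in the set and a slow delayed rectifier, averaged 560.3 ± 190.1 and 581 ± 184 CPM in KD-labelled and LacZ stressed mice, and 665 ± 242 and 695 ± 354 CPM in KD-labelled and LacZ unstressed mice. The stress estimates were 0.08 for Kcns2 and -0.25 for Kcnb2.

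The Kv3 subunits open at high voltage and close fast, which lets interneurons fire at high rates. Kcnc2 was the highest of them per kb of span. Levels of Kcnc2 (lowest, median and highest library) were 195, 235 and 575 CPM in KD-labelled and 204, 342 and 625 CPM in LacZ stressed mice. They were 193, 260.1 and 629.7 CPM in KD-labelled and 222, 299.8 and 618 CPM in LacZ unstressed mice. The 4 ranges nearly coincided for Kcnc2. Kcnc1 averaged 24.4 ± 14.2 and 27.3 ± 13.98 CPM in KD-labelled and LacZ stressed mice, and 31.7 ± 18.96 and 29.2 ± 19.3 CPM in KD-labelled and LacZ unstressed mice. Kcnc4 averaged 9.99 ± 6.36 and 11.9 ± 6.74 CPM in KD-labelled and LacZ stressed mice, and 11.2 ± 6.91 and 13.4 ± 9.87 CPM in KD-labelled and LacZ unstressed mice. Stress estimates were -0.12, -0.24 and -0.17 for Kcnc2, Kcnc1 and Kcnc4, none with an interval that excluded 0.

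Kv4 alpha subunits carry the dendritic A-type current. Kcnd2 was the higher per kb of span. With stress, Kcnd2 stood at 566, 928 and 1693 CPM (lowest, median and highest) in KD-labelled libraries and at 528, 1010 and 1879 CPM in LacZ libraries. Without stress it stood at 635, 1071 and 2692 CPM in KD-labelled libraries and at 556, 1067 and 2390 CPM in LacZ libraries. The 4 groups overlapped over most of their range. Kcnd3 gave the smallest unadjusted p for stress. Kcnd3 had 113, 128 and 141 CPM in the lowest, median and highest KD-labelled stressed library, and 108, 118 and 150.5 CPM in LacZ stressed libraries. In unstressed mice it had 109, 149 and 294 CPM with the KD label and 120.4, 134 and 184 CPM with LacZ. All 14 stressed libraries lay below the unstressed mean on the log2 scale, but 13 of them also lay above the lowest unstressed library. Kcnd3 had a log2 fold change for stress averaged over the viruses of -0.30 (SE 0.11, 95% interval -0.53 to -0.07, edgeR unadjusted p = 0.0132, adjusted p = 1.00). The difference was -0.38 within KD-labelled mice (unadjusted p = 0.0247) and -0.22 within LacZ mice (unadjusted p = 0.18), and their difference was -0.16 (unadjusted p = 0.483). An unstressed KD-labelled library, replicate 2, held the highest value, and without it the averaged difference was -0.20 (unadjusted p = 0.0282) and that within KD-labelled mice -0.18.

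KChIP proteins bind Kv4 channels, sense calcium and set their number at the membrane. Kcnip4 was the highest of them per kb of span. In stressed mice, the lowest, median and highest libraries held 3050, 4810 and 10772 CPM of Kcnip4 with the KD label and 2713, 5386 and 9586 CPM with LacZ. Unstressed mice held 2735, 5282 and 12900 CPM with the KD label and 3702, 4373 and 13563 CPM with LacZ. Its range within each group was wider than any difference between group medians. Kcnip1, known from interneurons, was the lowest of them, at 0.0761 CPM per kb against 5.43 CPM per kb for Kcnip4. Levels of Kcnip1 (lowest, median and highest library) were 19.7, 25.5 and 47.2 CPM in KD-labelled and 18.5, 24.5 and 27.9 CPM in LacZ stressed mice. They were 24.9, 27.7 and 58.7 CPM in KD-labelled and 23.5, 26.9 and 34.97 CPM in LacZ unstressed mice. The highest library of each KD-labelled group stood clear of the other 6. The knockdown label estimate was 0.19 averaged over stress (unadjusted p = 0.176) and 0.22 in unstressed mice, where it was 0.01 without replicate 2. Kcnip2 averaged 16.2 ± 7.53 and 17.5 ± 10.6 CPM in KD-labelled and LacZ stressed mice, and 16.2 ± 8.18 and 17.6 ± 12.03 CPM in KD-labelled and LacZ unstressed mice. Kcnip3, which also acts as a transcriptional repressor, averaged 43.6 ± 24.5 and 53.2 ± 30.2 CPM in KD-labelled and LacZ stressed mice, and 50.9 ± 29.5 and 55.3 ± 32.2 CPM in KD-labelled and LacZ unstressed mice.

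The Kcnh genes code for EAG, ERG and ELK channels, which act on resting potential and firing threshold. Kcnh7, an ERG channel, was the highest per kb of span. With stress, Kcnh7 stood at 628, 885 and 2153 CPM (lowest, median and highest) in KD-labelled libraries and at 609.7, 1274 and 2158 CPM in LacZ libraries. Without stress it stood at 650.4, 1099 and 2756 CPM in KD-labelled libraries and at 705, 1081 and 2685 CPM in LacZ libraries. Groups overlapped, and the stress estimate was -0.29 with a standard error of 0.26. All 5 Kcnh members were below 0 for stress, between -0.29 and -0.10, and 4 were so by voomWithQualityWeights. Kcnh3, an ELK channel of forebrain, averaged 8.67 ± 8.06 and 10.5 ± 8.87 CPM in KD-labelled and LacZ stressed mice, and 8.73 ± 7.62 and 12.8 ± 17.7 CPM in KD-labelled and LacZ unstressed mice. The EAG channel Kcnh1 averaged 78.5 ± 23.9 and 80.05 ± 24.03 CPM in KD-labelled and LacZ stressed mice, and 91.8 ± 40.1 and 86.4 ± 20.7 CPM in KD-labelled and LacZ unstressed mice. Kcnh5, also an EAG channel, averaged 77.1 ± 26.997 and 79.1 ± 26.8 CPM in KD-labelled and LacZ stressed mice, and 87.6 ± 33.7 and 80.3 ± 30.01 CPM in KD-labelled and LacZ unstressed mice. Kcnh2, an ERG channel best known from the heart, averaged 2.46 ± 1.21 and 2.49 ± 1.66 CPM in KD-labelled and LacZ stressed mice, and 2.60 ± 0.958 and 2.84 ± 3.21 CPM in KD-labelled and LacZ unstressed mice.

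Kcnq3 and Kcnq5 carry the M-current, a slow brake on firing that acetylcholine closes. Kcnq5 had 675, 1036 and 1904 CPM in the lowest, median and highest KD-labelled stressed library, and 656, 1131 and 1998 CPM in LacZ stressed libraries. In unstressed mice it had 743, 1203 and 2292 CPM with the KD label and 751, 1166 and 2864 CPM with LacZ. The highest Kcnq5 libraries of the 4 groups lay between 1904 and 2864 CPM, and the ranges overlapped. Kcnq3 averaged 504 ± 116 and 503 ± 113 CPM in KD-labelled and LacZ stressed mice, and 586 ± 162 and 560.1 ± 197 CPM in KD-labelled and LacZ unstressed mice. The stress estimates were -0.25 for Kcnq5 and -0.19 for Kcnq3.

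G protein-gated inward rectifiers, the GIRK channels, hyperpolarise neurons on activation of receptors such as GABA-B. Kcnj9 was the highest per kb. In stressed mice, the lowest, median and highest libraries held 8.49, 19.97 and 59.7 CPM of Kcnj9 with the KD label and 15.8, 18.8 and 70.1 CPM with LacZ. Unstressed mice held 10.1, 32.3 and 62.2 CPM with the KD label and 16.7, 21.8 and 99.5 CPM with LacZ. Each group spanned more than 4-fold. Kcnj6 was among the members of smallest p in 4 comparisons. Levels of Kcnj6 (lowest, median and highest library) were 40.7, 60.8 and 110.3 CPM in KD-labelled and 58.1, 68.2 and 86.1 CPM in LacZ stressed mice. They were 46.8, 81.3 and 198 CPM in KD-labelled and 64.7, 72.03 and 91.1 CPM in LacZ unstressed mice. The highest and the lowest Kcnj6 libraries were both KD-labelled, the highest unstressed and the lowest stressed, whereas the LacZ groups were narrow. For stress within KD-labelled mice, the log2 fold change of Kcnj6 was -0.54 (SE 0.23, 95% interval -1.01 to -0.08, edgeR unadjusted p = 0.0245, adjusted p = 1.00). Averaged over the viruses the stress estimate was -0.33 (unadjusted p = 0.0532), and the knockdown label estimate in unstressed mice was 0.32 (unadjusted p = 0.171). Without unstressed KD-labelled replicate 2 these 3 estimates were -0.24, -0.17 and 0.01. Kcnj3 averaged 322 ± 119.8 and 384 ± 171 CPM in KD-labelled and LacZ stressed mice, and 431 ± 258 and 417 ± 188 CPM in KD-labelled and LacZ unstressed mice.

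**Figure D3:**
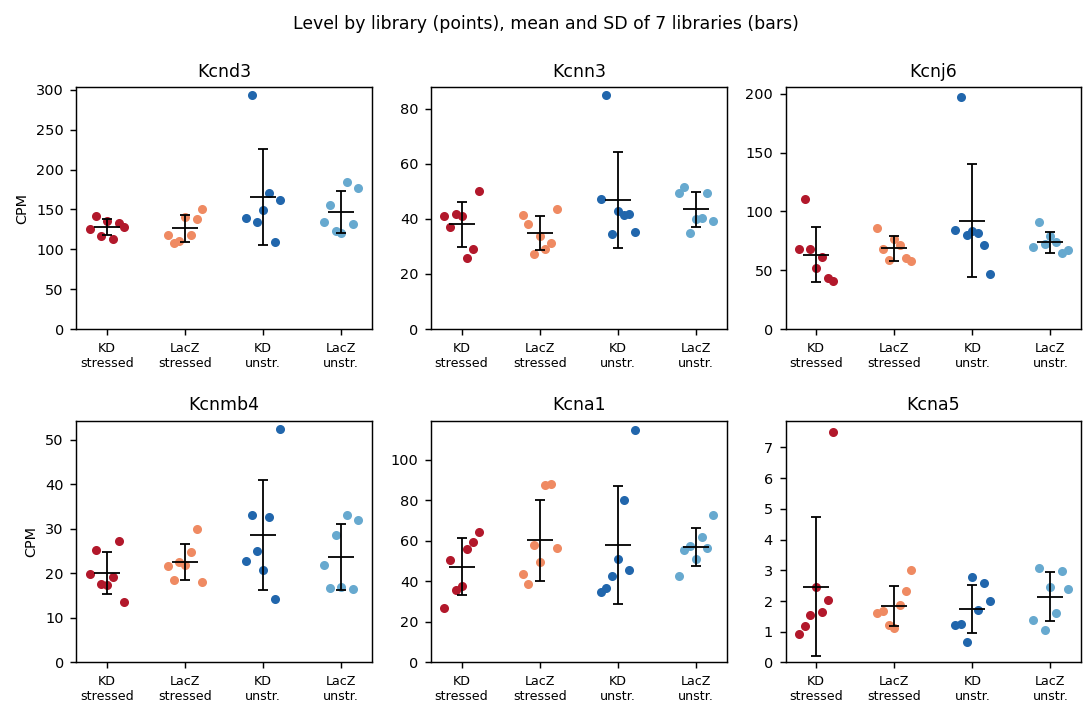
Level of 6 members in CPM in every library (points), with mean and SD of the 7 libraries of a group (bars). Single libraries hold the highest values of Kcnd3, Kcnn3 and Kcnj6 in the unstressed KD-labelled group and of Kcna5, at 7.50 CPM, in the stressed KD-labelled group.

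Among the other inward rectifiers, Kcnj10 and Kcnj16 are known as the channels by which astrocytes take up potassium, and Kcnj4 is neuronal. With stress, Kcnj10 stood at 28.6, 55.4 and 61.4 CPM (lowest, median and highest) in KD-labelled libraries and at 29.99, 45.3 and 61.7 CPM in LacZ libraries. Without stress it stood at 33.8, 54.9 and 77.4 CPM in KD-labelled libraries and at 29.7, 44.1 and 62.7 CPM in LacZ libraries. All 4 ranges of Kcnj10 overlapped, and the highest library was unstressed and KD-labelled. Kcnj16 averaged 38.8 ± 11.2 and 35.6 ± 6.78 CPM in KD-labelled and LacZ stressed mice, and 36.8 ± 14.3 and 35.3 ± 7.92 CPM in KD-labelled and LacZ unstressed mice. The stress estimates were -0.08 for Kcnj10 and 0.05 for Kcnj16. Kcnj4 was among the most variable members. Kcnj4 had 2.35, 4.14 and 21.4 CPM in the lowest, median and highest KD-labelled stressed library, and 2.41, 5.11 and 22.4 CPM in LacZ stressed libraries. In unstressed mice it had 1.26, 6.48 and 20.4 CPM with the KD label and 3.17, 4.11 and 53.8 CPM with LacZ. The highest value was an unstressed LacZ library. The knockdown label estimate averaged over stress was -0.57 (SE 0.51, unadjusted p = 0.27), and it was 0.35 by voomWithQualityWeights. Without unstressed LacZ replicate 1, the library of the highest value, it was -0.12.

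Tandem-pore channels carry the background leak current. Kcnk1 was the highest per kb. In stressed mice, the lowest, median and highest libraries held 5.06, 7.07 and 15.6 CPM of Kcnk1 with the KD label and 6.07, 7.54 and 12.9 CPM with LacZ. Unstressed mice held 7.87, 8.68 and 18.7 CPM with the KD label and 5.84, 7.73 and 14.9 CPM with LacZ. Its groups overlapped. Kcnk2, a mechanically and lipid-gated leak channel, averaged 29.4 ± 6.09 and 32.02 ± 7.30 CPM in KD-labelled and LacZ stressed mice, and 32.2 ± 3.63 and 31.7 ± 4.12 CPM in KD-labelled and LacZ unstressed mice. The highest Kcnk2 library was 1.93-fold the lowest, the smallest ratio in the set. Kcnk9, an acid-sensitive leak channel, averaged 5.96 ± 3.03 and 6.71 ± 2.78 CPM in KD-labelled and LacZ stressed mice, and 7.90 ± 4.06 and 7.75 ± 4.01 CPM in KD-labelled and LacZ unstressed mice. Stress estimates were -0.15 for Kcnk1, -0.06 for Kcnk2 and -0.31 for Kcnk9, and each interval included 0.

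The BK channel Kcnma1 opens with calcium and voltage together, and Kcnmb4 is its neuronal beta subunit. Levels of Kcnma1 (lowest, median and highest library) were 624, 806 and 1134 CPM in KD-labelled and 625, 867 and 1111 CPM in LacZ stressed mice. They were 666, 1077 and 1235 CPM in KD-labelled and 769, 901 and 1418 CPM in LacZ unstressed mice. Median levels were lower in both stressed groups, with overlapping ranges, and the stress estimate was -0.22 (unadjusted p = 0.0725). With stress, Kcnmb4 stood at 13.7, 19.2 and 27.3 CPM (lowest, median and highest) in KD-labelled libraries and at 18.1, 21.98 and 30.03 CPM in LacZ libraries. Without stress it stood at 14.2, 25.1 and 52.3 CPM in KD-labelled libraries and at 16.5, 21.9 and 33.05 CPM in LacZ libraries. A single unstressed KD-labelled library, replicate 7, was well above all others for Kcnmb4. Kcnmb4 had a log2 fold change for stress within KD-labelled mice of -0.52 (SE 0.23, 95% interval -0.99 to -0.05, edgeR unadjusted p = 0.0323, adjusted p = 1.00). Without that library the estimate was -0.29. Within LacZ mice it was -0.07, and the interaction estimate was -0.44 (unadjusted p = 0.179).

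SK channels open with calcium alone and carry the medium afterhyperpolarisation that spaces action potentials. Kcnn2 was the highest of the 3 per kb. Kcnn2 had 108, 159 and 218 CPM in the lowest, median and highest KD-labelled stressed library, and 85.3, 154 and 238 CPM in LacZ stressed libraries. In unstressed mice it had 125, 213 and 322 CPM with the KD label and 109, 171 and 299 CPM with LacZ. Its stress estimate of -0.34 was the lowest of the 42 members, with an unadjusted p of 0.0791. In stressed mice, the lowest, median and highest libraries held 25.8, 40.9 and 50.2 CPM of Kcnn3 with the KD label and 27.2, 33.9 and 43.7 CPM with LacZ. Unstressed mice held 34.7, 41.96 and 84.8 CPM with the KD label and 34.8, 40.3 and 51.5 CPM with LacZ. Only 1 of the 14 stressed libraries lay above the unstressed mean of Kcnn3, while the ranges overlapped. For stress averaged over the viruses, the log2 fold change of Kcnn3 was -0.31 (SE 0.13, 95% interval -0.57 to -0.05, edgeR unadjusted p = 0.0201, adjusted p = 1.00). Within LacZ mice it was -0.32 (unadjusted p = 0.0867) and within KD-labelled mice -0.30. Without unstressed KD-labelled replicate 2 the averaged estimate was -0.21 (unadjusted p = 0.0523) and that within KD-labelled mice -0.10. Kcnn1, the lowest member per kb, averaged 0.745 ± 0.823 and 0.778 ± 0.609 CPM in KD-labelled and LacZ stressed mice, and 0.64 ± 0.515 and 0.901 ± 0.981 CPM in KD-labelled and LacZ unstressed mice.

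The sodium-activated channels Kcnt1 and Kcnt2 carry a slow outward current after bursts of firing. Levels of Kcnt2 (lowest, median and highest library) were 169.8, 272 and 544 CPM in KD-labelled and 150.3, 348 and 487 CPM in LacZ stressed mice. They were 201, 324 and 792 CPM in KD-labelled and 178, 315 and 681 CPM in LacZ unstressed mice. The unstressed groups reached higher maxima, and the ranges overlapped. Kcnt1 averaged 20.02 ± 12.5 and 23.1 ± 15.96 CPM in KD-labelled and LacZ stressed mice, and 24.9 ± 16.4 and 27.05 ± 22.9 CPM in KD-labelled and LacZ unstressed mice. Stress estimates were -0.32 for Kcnt2 and -0.27 for Kcnt1, with standard errors of 0.24 and 0.38.

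Of the 42 members, 7 had their highest library in the same mouse, unstressed KD-labelled replicate 2. It held 294 CPM of Kcnd3, 84.8 CPM of Kcnn3, 198 CPM of Kcnj6, 58.7 CPM of Kcnip1, 158 CPM of Kcnh1, 77.4 CPM of Kcnj10 and 18.7 CPM of Kcnk1. More members were highest in unstressed LacZ replicate 1, with 13, and in unstressed KD-labelled replicate 7, with 11, the libraries of the highest and the lowest GC slope. Striatal markers summed to 565 CPM in this library and to between 258 and 408 CPM in the other 6 of its group, while inhibitory neuron markers were lowest in it, at 374 CPM. Its mitochondrial share of counts, 2.30%, was the lowest of all libraries, and its depth, 44.3 M, the highest. The part of these features in the 7 values was not tested.

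Variation among the libraries was wide and ran along base composition. Log2 CPM was correlated with the GC slope of the library in 37 of 42 members, 18 upward and 19 downward, at a permutation p adjusted over the 42 relations under 0.05. The smallest absolute r among them was 0.44, and 73.8% of all 19171 tested genes had an r at least this far from 0, so most genes followed the slope as the members did. With group means removed 37 members passed as well, and without the 2 libraries farthest from the median slope 36 did. The slope itself was computed from all tested genes, the members included, as the dependence of level on exonic GC content. That GC-rich members go upward with it and GC-poor members downward therefore follows largely from its definition, and the values by GC content are given as a description. Of the 9 members with an exonic GC content of at least 55%, all were correlated upward, with a median Pearson r of 0.94, and their highest library was 7.35- to 48.0-fold their lowest. The 13 members under 45% GC had a median r of -0.80 and ratios between 2.25 and 7.36. Across the 42 members, exonic GC content and the size of this dependence had r = 0.84, given as a description over genes that share the same libraries.

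**Figure D4:**
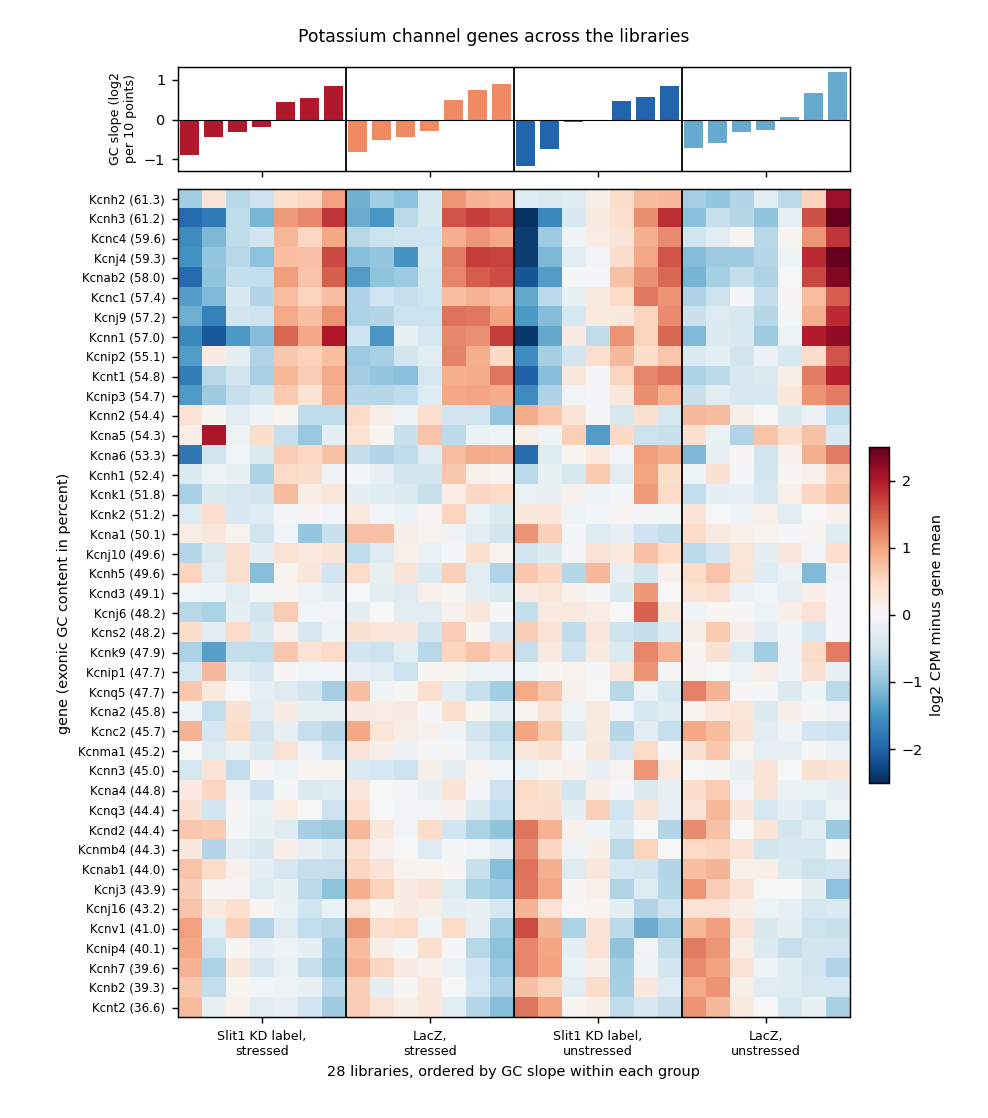
Log2 CPM minus the gene's mean for 42 members (rows, ordered by exonic GC content) in 28 libraries (columns, ordered by GC slope within each group), with the GC slope of each library above. Members of at least 55% GC are low in libraries of negative slope and high in those of positive slope, and most members under 45% show the opposite.

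The strongest upward relations were those of Kcnab2, Kcnt1 and Kcnj4, with r = 0.99, 0.97 and 0.97, rho = 0.97, 0.96 and 0.95 and an adjusted permutation p of 1.62e-05 each. The strongest downward relations were those of Kcnj3, Kcnd2 and Kcnab1, with r = -0.93, -0.91 and -0.91, rho = -0.95, -0.91 and -0.94 and the same adjusted permutation p. This p rests on the smallest value that the permutations could give, 1e-05. Without the 2 farthest libraries the 6 coefficients were 0.99, 0.96, 0.96, -0.92, -0.89 and -0.92. The largest spreads within groups were those of Kcnh3, Kcnn1 and Kcnj4, with SDs of log2 CPM of 1.505, 1.403 and 1.389, and the smallest were those of Kcnk2, Kcna2 and Kcnd3, with 0.24, 0.27 and 0.28. Kcnip1, Kcnd3, Kcnk2, Kcna2 and Kcna5 were the 5 members that did not pass.

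Not every member followed its base composition. Kcna1 and Kcnn2, at 50.1% and 54.4% exonic GC, were correlated downward with r = -0.80 and -0.81, although Kcnt1, Kcnip3, Kcna6, Kcnk1 and Kcnh1, at 50 to 55% GC as well, were correlated upward. Kcnk9 at 47.9% was correlated upward with r = 0.73, and Kcnn3, at 44.98%, upward with r = 0.45. The exonic share of the span of these genes ran from 1.79% for Kcnn2 to 79.8% for Kcna1, and the GC content of introns was not analysed here.

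The 4 pairs whose pore stretches are printed above went opposite ways across the same libraries. They were chosen after their values were seen, and each sets a gene of higher exonic GC content beside a relative of lower content. The opposite signs therefore follow largely from this choice and from the definition of the slope. The coefficients and p-values of the pairs are given as a description and not as a test. Kcnh3 was correlated with the GC slope at r = 0.97 and Kcnh7 at r = -0.84. Kcnt1 had r = 0.97 and Kcnt2 r = -0.91, Kcnc4 had r = 0.94 and Kcnc2 r = -0.85, and Kcnj9 had r = 0.94 and Kcnj3 r = -0.93. The rho values were 0.95 and -0.83, 0.96 and -0.92, 0.93 and -0.87, and 0.91 and -0.95, and the adjusted permutation p was 1.62e-05 in all 8. In a single mouse, unstressed KD-labelled replicate 7, which had the lowest slope, Kcnh3 stood at 1.11 CPM and Kcnh7 at 2756 CPM. In unstressed LacZ replicate 1, which had the highest slope, they stood at 50.9 and 705 CPM. The slopes have their widest gap between 0.07 and 0.45, with 17 libraries below and 11 above it, and all 8 genes kept the sign of r on both sides. Of the 37 members that passed, 35 did, and the exceptions were Kcnh1 and Kcnj6.

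**Figure D5:**
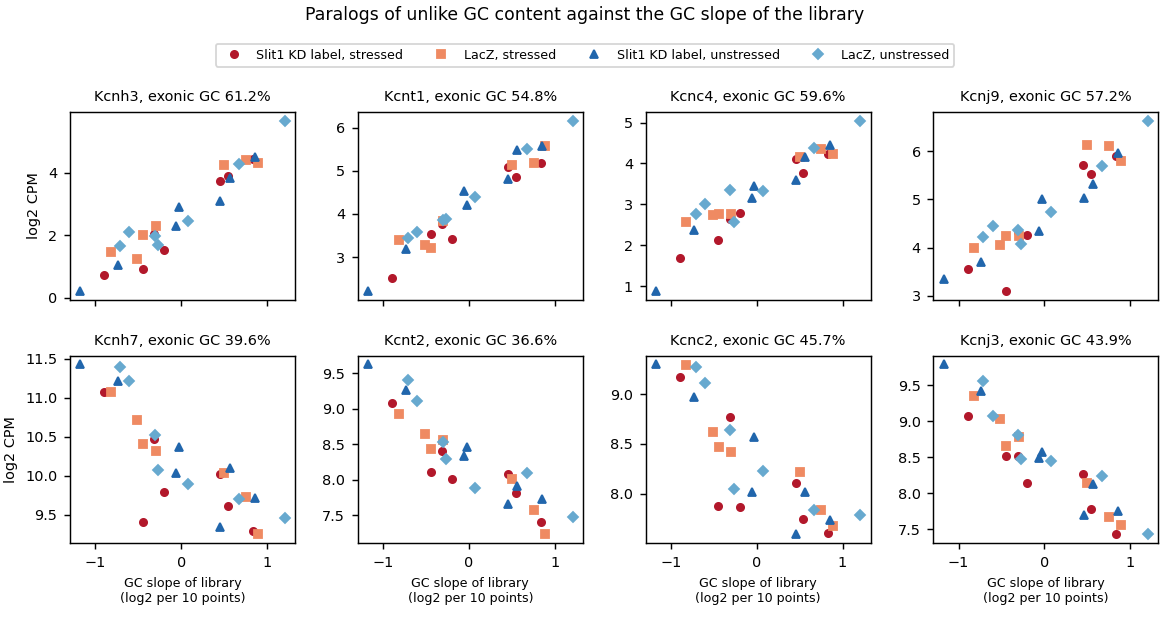
Log2 CPM against the GC slope of the library (log2 per 10 percentage points of GC) for 4 pairs of related genes, with 1 point for each of 28 libraries. The upper genes, between 54.8% and 61.2% exonic GC, rise with the slope and the lower genes, between 36.6% and 45.7%, decline. The pairs were chosen after their values were seen.

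With the GC slope as a covariate, the edgeR fit again called 0 genes in each comparison. At an unadjusted p under 0.05 it counted 12 members for stress averaged over the viruses, all lower in stressed mice, against 10.2% of all genes in either direction and 7.59% in that direction. They were Kcnn2, Kcnn3, Kcnd3, Kcnt2, Kcnj3, Kcnd2, Kcnt1, Kcnj6, Kcnc1, Kcnq5, Kcnma1 and Kcnk9, with log2 fold changes between -0.35 and -0.21 and adjusted p values of 0.411 or more by edgeR. The estimate was below 0 in 35 of 42 members, with a median of -0.15, against 49.2% of all genes in this fit. The counts were 9 for stress with the knockdown label, against 8.5% of all genes, 6 for the knockdown label averaged, against 7.38%, 2 for it in stressed mice, against 2.21%, and 1 for stress with LacZ, against 1.87%. None were counted for the knockdown label in unstressed mice, against 5.1% of all genes, or for the interaction, against 0.882%.

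Members also varied together with markers of the cell types a cortical punch can hold. After group means and the GC slope were removed, 182 of 546 relations between the 42 members and 13 marker lists had an adjusted permutation p under 0.05. The smallest absolute r among them was 0.45, and over all tested genes and the same lists 19% of the relations were at least as far from 0. Pan-neuronal markers were related to 30 members, all upward, where 22.8% of all genes lay as far upward. Excitatory neuron markers were related to 23 members, of which 22 upward, against 19.2% of all genes upward. Microglial markers were related to 27 members, all downward, against 17.1% of all genes, and T cell markers to 25, all downward, against 17.2%. These shares were not tested against each other, and the members share the same libraries. The permutations exchanged the residuals of the 28 libraries with no allowance for the group means and slope fitted before. The p-values of these relations are therefore somewhat too small and the numbers that passed somewhat too high. No member was related to the astrocyte or the bone list. For astrocytes 2.68% of all genes lay as far upward and 1.22% as far downward, and for bone 1.57% and 0.261%. With the GC slope not removed 211 relations passed, and 146 did so without the 2 libraries farthest from the median marker level.

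The strongest relation to excitatory neuron markers was that of Kcnh7, with r = 0.93, rho = 0.88 and an adjusted permutation p of 0.000273, followed by Kcnc2 with r = 0.88 and Kcnip4 with r = 0.87. Without the 2 farthest libraries r was 0.89, 0.81 and 0.82. With pan-neuronal markers Kcnt2 had r = 0.81, Kcnab2 0.80 and Kcnc2 0.79, and without the 2 farthest libraries 0.77, 0.72 and 0.74. For microglial markers Kcnma1 had r = -0.75, Kcnip4 -0.73 and Kcnh1 -0.73, and for T cell markers Kcnip3 had -0.65, Kcnab1 -0.62 and Kcnip4 -0.60. Without the 2 farthest libraries Kcnab1 no longer passed, at r = -0.46. CPM are shares of a fixed total, so the levels of different lists are not independent of each other.

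Parvalbumin interneuron markers were related upward to 2.38% of the members, against 3.61% of all genes, and downward to 4.76%, against 2.12%. Kcna1 alone was related upward to them, with r = 0.77, rho = 0.82 and an adjusted permutation p of 0.000364. Its r was 0.81 without the 2 farthest libraries. It was also the strongest of the 5 members related to inhibitory neuron markers, with r = 0.63. The 5 members were all related upward, where 13.7% of all genes lay as far upward, so their share was near that of all genes. Kcnb2 and Kcnq3 were related downward to the parvalbumin list, with r = -0.56 and -0.45, but neither passed without the 2 farthest libraries, at -0.46 and -0.34. Striatal markers were related to 15 members downward, against 7.37% of all genes, and to 2 upward, against 5.59%. Kcna5 was among the 2 upward, with r = 0.76 and rho = 0.79, and r was 0.57 without the 2 farthest libraries. It was also related upward to markers of oligodendrocyte precursors, with r = 0.74, and of choroid plexus, with r = 0.70, the last of which did not pass without the 2 farthest libraries (r = 0.45), while Kcnb2 and Kcnq3 were related downward to precursor markers, with r = -0.79 and -0.77. Precursor markers were related to 19 members downward, against 10.8% of all genes, and to 1 upward, against 11.7%. Choroid plexus markers were related to 11 downward, against 4.69%, and to 4 upward, against 5.05%. Only 2 of these 15 relations also passed without the 2 farthest libraries. Oligodendrocyte markers were related to 9 downward, against 6.37%, and to 2 upward, against 5.15%. Vessel markers were related to 6, all downward, against 3.92%. Without the 2 farthest libraries, 9 of 17 striatal, 14 of 20 precursor, 5 of 11 oligodendrocyte and 6 of 6 vessel relations also passed. For oligodendrocyte and vessel markers the strongest relations were again those of Kcnb2 and Kcnq3, between -0.67 and -0.58. Kcnj10 and Kcnj16, the astrocytic channels, had r = -0.01 and 0.43 with the astrocyte list, with an adjusted permutation p of 0.976 and 0.0627.

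The ranges of the marker lists overlapped between the groups. Excitatory neuron markers summed to medians of 925 and 1091 CPM in the KD-labelled and LacZ stressed groups, against 1183 and 1192 CPM in the KD-labelled and LacZ unstressed groups, with ranges of 580 to 1422, 865 to 1472, 845 to 1344 and 740 to 1897 CPM. Pan-neuronal medians were 6013, 6711, 5381 and 5603 CPM in the same order, and T cell marker medians were 195, 124, 159 and 105 CPM. Microglial medians were 479 and 381 CPM in the KD-labelled and LacZ stressed groups, against 439.9 and 353 CPM in the unstressed ones. Inhibitory neuron medians were 459 and 482 CPM with stress, against 516 and 553 CPM without it. Within each virus, the stressed group had lower excitatory and inhibitory medians and higher pan-neuronal, T cell and microglial medians, beside stress estimates of the members that lay mostly below 0. Striatal medians were lower with stress too, at 288 against 315 CPM in KD-labelled and 270 against 343 CPM in LacZ mice. So were the oligodendrocyte medians, at 482 against 584 CPM and 572 against 643 CPM, and the precursor, choroid plexus and parvalbumin medians. Astrocyte, vessel and bone medians were lower with stress in KD-labelled mice and higher with it in LacZ mice. The part of these markers in the estimates was not tested.

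None of the other genes of the family passed the test either. Of 59 other potassium channel and accessory genes, 44 were tested and 5 were listed at 0 (Kcne3, Kcne4, Kcnj13, Kcnmb1 and Lrrc38), and none was called in any comparison. Kcnmb1 overlaps the span of Kcnip1, and the 0 of these 5 does not show that they were absent. The stress estimate of the tested genes was below 0 in 27 of 44, with a median of -0.10, against 53.7% of all genes. At an unadjusted p under 0.05 stood 3 of the 44, against 2.21% of all genes. Dpp6, an auxiliary subunit of Kv4 channels, averaged 345 ± 99.4 CPM in KD-labelled and 307 ± 58.3 CPM in LacZ stressed mice, against 402 ± 95.8 CPM in KD-labelled and 389 ± 48.8 CPM in LacZ unstressed mice. Its stress estimate was -0.28 (unadjusted p = 0.0224), and that of Kcnmb2, a BK beta subunit, was -0.35 (unadjusted p = 0.0355). Kcnj15, an inward rectifier, had an estimate of 1.00 (unadjusted p = 0.00946) at levels of 0.477 ± 0.49 and 0.239 ± 0.153 CPM in KD-labelled and LacZ stressed mice, against 0.153 ± 0.0854 and 0.177 ± 0.1 CPM in KD-labelled and LacZ unstressed mice. For the knockdown label averaged over stress, Kcnab3, a Kv beta subunit, had an estimate of -0.44 (unadjusted p = 0.0184) and lay below the LacZ mean in 13 of 14 KD-labelled libraries.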

How the data were processed

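Ribosome-depleted RNA from ventromedial prefrontal cortex punches of 28 female mice was sequenced, with libraries made from 7 individual mice per group, per the labels' protocols. The deposited values are raw counts of fragments per gene, made by the authors with featureCounts 1.6.2 over whole gene spans of Ensembl release 90 on GRCm38, from alignments with duplicates removed and without a strand option, per the file headers. HISAT2 and DESeq2 are also named in the submitters' processing notes. The kit keeps strand, but the counts do not use it, so a gene and an antisense partner cannot be told apart. Groups were read from the virus and treatment labels.

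Counts of all 28 libraries were fitted together in edgeR 4.0.16 (R 4.3.3) with TMM scaling, filterByExpr by group and a robust quasi-likelihood fit, with p-values adjusted by Benjamini-Hochberg over 19171 genes and called under 0.05. All tests were two-sided, and all p-values of group comparisons are from this edgeR fit unless another tool is named. DESeq2 1.42.0, limma 3.58.1 voomWithQualityWeights, other scalings, filters, covariates and libraries left out were tried as alternatives. Relations across libraries used Pearson's r and Spearman's rho with 100000 permutations (Python 3.11.15, scipy 1.17.1), adjusted over the 42 or the 546 relations computed. Where group means or the GC slope were removed first, residuals were permuted with no allowance for the terms removed. Only the edgeR fit for stress averaged over the viruses was tried on simulated counts, and those results are not given here.

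The members and lists were chosen with earlier results of these data known. Members named with values by library are the 3 of smallest unadjusted p in each comparison and the highest per kb in each subfamily. The 4 pairs of related genes were chosen after their values were seen. No protein table was used here, so coding stretches are shown in place of protein stretches. Libraries held 30.6 M to 44.3 M counted fragments.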

Additional observations from a re-analysis of the deposited data

Results flagged for a closer look

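In each of the 4 groups of 7 libraries, the highest and the lowest value of each of the 42 members were set against the gap to the next library, which made 168 groups. Chance alone marks about 1 in 20 such groups, and 4 were marked, of which 3 were in unstressed KD-labelled replicate 2. In that library Kcnj6 stood at 197.6 CPM, far above the other 6 libraries of its group with their median of 80.8 CPM. Kcnn3 stood at 84.8 CPM there, against a median of 41.7 CPM in the other 6, and Kcnip1 at 58.7 CPM, against 27.1 CPM. The fourth was Kcnip1 in stressed KD-labelled replicate 7, at 47.2 CPM against a median of 23.98 CPM in the other 6.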

How the results depend on the processing

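Beside the fit reported, 9 alternatives and the omission of each of 28 libraries in turn were run, and each called 0 genes in each comparison it covered. The fit to only the groups compared covered the 4 comparisons between single groups. Members past an unadjusted p of 0.05 numbered 3 for stress with the knockdown label and 2 for stress averaged. They ranged from 0 (without unstressed KD-labelled replicate 2, and in the fit to only the groups compared) to 10 (first principal component as covariate) and from 1 (without the same library) to 13 (the same covariate). All genes past this p were 1.2%, 1.53% and 8.52% in the first range and 1.49% and 10.5% in the second. Of 768 values of named members under these settings, 765 kept their direction and 3 reversed. In comparisons between single groups, the 768 include omissions of libraries from groups not compared. Such omissions hardly touch the estimate, so those values had little room to reverse. The knockdown label estimate of Kcnj4, averaged over stress, was 0.35 by voomWithQualityWeights. That of Kcna5 in stressed mice was -0.18 without the 3 libraries that stand apart, and ranged from -0.17 to 0.59 over single libraries left out. The cause was not tested. Over single libraries left out, the median over the members ranged from -0.20 to -0.02 for stress with LacZ, -0.29 to -0.14 for stress with the knockdown label, -0.23 to -0.12 for stress averaged, -0.09 to 0.10 for the knockdown label in unstressed mice and -0.15 to 0.01 for the interaction. For stress averaged over the viruses, the unadjusted p ranged over single libraries left out from 0.00412 to 0.0282 for Kcnd3 and from 0.01 to 0.0523 for Kcnn3. Splitting the libraries at the widest gap in the GC slope was chosen after seeing the data. No paired analysis was possible because the labels give no replicate numbers, and the numbers used here follow accession order and only name libraries. Of the variance of the GC slope, 70.8% lay between the 7 numbers, and what this order stands for is not given in the labels. Depth limits the lowest members, Kcnn1 above all.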
